A study of Homo sapiens with 33 samples.

Results

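FABP4 and 8 other genes of lipid handling that are known targets of the peroxisome proliferator-activated receptors (PPARs) were followed through every condition of an expression array series on resistance to FGFR inhibition. The 9 genes were FABP4, FABP5, ANGPTL4, PLIN2, PDK4, CPT1A, ACSL1, ACSL5 and ACAA2, out of 22465 genes on the array with a probe set of their own. Each gene was read from the probe set annotated to its symbol alone, and where a symbol had several such probe sets, from the brightest by the mean over all 33 arrays. The genes were selected on values of this series: FABP4 was chosen by its signal, which fell by 10.07 log2 units in RT112 R1 cells kept in drug, against parental RT112 cells. The values of R1 in drug are therefore given as a description, with no test.

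PPARs are nuclear receptors that bind DNA together with a retinoid X receptor (RXR) and are switched on by fatty acids and their derivatives. PPARG drives the fat cell programme and takes part in urothelial differentiation, whereas PPARA and PPARD are best known for turning on fatty acid oxidation in liver, heart and muscle. FABP4, a cytosolic carrier of fatty acids that can hand ligands to PPARG, is a textbook PPARG target in fat cells and is also made by urothelium.

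Classical PPAR response elements are built from copies of the 6-base core AGGTCA, placed in a row with 1 base between them. Promoter windows (RefSeq, GRCh38.p14), running from 250 bases before to 50 bases after an annotated start, were held for 7 of the 9 genes, with 12 windows in all. The full element, AGGTCA followed by any 1 base and a further AGGTCA, searched on both strands, was in 0 of these 12 windows and in 8 of 35116 windows of all genes (0.0228%). A core spelt as AGGTCA or as its variants GGGTCA and AGGGCA, on either strand, was in 8 of the 12 windows, from 6 of the 7 genes and in 40.7% of all windows. The windows with a core are printed for the 4 genes that, with FABP4, moved most in RT112 cells. These are ACSL5, PDK4, ACAA2 and ACSL1, of whose 5 windows the one with cores on the printed strand is given. Each is written 5′ to 3′ on the strand of its gene, with the core in capitals.
ACSL5, first start (chr10:112375018-112375317, plus strand): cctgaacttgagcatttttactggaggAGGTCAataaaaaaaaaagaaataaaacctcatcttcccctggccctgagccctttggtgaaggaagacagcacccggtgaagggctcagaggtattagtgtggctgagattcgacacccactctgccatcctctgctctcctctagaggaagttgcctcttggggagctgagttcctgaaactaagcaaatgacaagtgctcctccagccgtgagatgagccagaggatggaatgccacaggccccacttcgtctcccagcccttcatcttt
ACSL5, second start (chr10:112375955-112376254, plus strand): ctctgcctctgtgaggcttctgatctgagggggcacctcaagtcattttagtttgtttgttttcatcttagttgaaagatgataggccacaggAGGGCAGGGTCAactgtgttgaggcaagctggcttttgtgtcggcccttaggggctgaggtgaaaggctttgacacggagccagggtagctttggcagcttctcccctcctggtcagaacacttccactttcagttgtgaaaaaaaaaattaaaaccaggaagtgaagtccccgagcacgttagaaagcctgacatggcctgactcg
PDK4 (chr7:95596467-95596766, minus strand): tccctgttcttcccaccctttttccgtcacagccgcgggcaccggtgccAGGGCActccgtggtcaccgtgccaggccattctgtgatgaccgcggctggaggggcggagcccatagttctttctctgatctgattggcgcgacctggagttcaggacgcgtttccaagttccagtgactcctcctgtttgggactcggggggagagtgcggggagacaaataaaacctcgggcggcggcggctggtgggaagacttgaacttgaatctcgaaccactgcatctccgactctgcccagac
ACAA2 (chr18:49813484-49813783, minus strand): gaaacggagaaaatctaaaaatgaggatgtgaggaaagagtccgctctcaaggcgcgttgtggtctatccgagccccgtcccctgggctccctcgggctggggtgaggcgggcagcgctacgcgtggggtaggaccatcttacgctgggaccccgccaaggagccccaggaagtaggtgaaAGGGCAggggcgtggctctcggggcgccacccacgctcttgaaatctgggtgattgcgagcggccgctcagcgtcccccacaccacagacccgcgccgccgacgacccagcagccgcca
ACSL1, another annotated start (chr4:184812202-184812501, minus strand): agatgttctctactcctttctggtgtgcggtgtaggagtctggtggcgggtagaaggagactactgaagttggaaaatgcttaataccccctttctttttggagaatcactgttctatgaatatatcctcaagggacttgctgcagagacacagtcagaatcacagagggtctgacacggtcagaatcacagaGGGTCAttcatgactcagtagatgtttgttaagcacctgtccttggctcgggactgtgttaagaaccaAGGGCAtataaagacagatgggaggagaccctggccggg
In the second ACSL5 window an AGGGCA core and a GGGTCA core stood next to each other with no base between them. AGGTCA itself occurred among the genes' windows only in the first ACSL5 window, and in 13.8% of all windows. CPT1A was the gene whose window held none of these cores. A match of letters is a description of the window, not evidence that a receptor binds there.

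RT112 and RT4 are established urothelial carcinoma cell lines that make both wild type FGFR3 and an FGFR3–TACC3 fusion protein. Derivatives that grow in PD173074, an inhibitor of the FGFR family, were obtained by long culture at constant dose: RT112 R1, R3 and RT4 R1 at 1 µM and RT112 R2 at 2 µM. Each derivative was a single resistant line carrying whatever it acquired during selection, and R3 also held an activating HRAS mutation in part of its cells. Affymetrix human transcriptome arrays were run in 11 conditions with 3 arrays each, 24 of RT112 and 9 of RT4. The conditions in RT112 were R1, R2 and R3 in PD173074 (+PD), the same lines grown without drug for 4 to 6 passages (-PD), parental cells given PD173074 for 24 h (acute PD), and untreated parental cells. The conditions in RT4 were R1 +PD, R1 -PD and untreated parental cells. The dose of the 24 h treatment is not in the labels of the arrays.

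Values were log2 signals deposited by the authors after robust multi-array averaging, and ran between 1.98 and 19.88, a wider range than that method usually gives. Differences in log2 units may therefore be larger than on a plain scanner scale. Array medians lay between 4.86 and 5.08, and signals near these cannot be told from background here, since no detection call was used. Replicate arrays correlated at a mean r between 0.9773 and 0.9967. R1 +PD replicate 3 stood lowest, with 1233 genes more than 1 log2 unit from its other replicates, and RT4 parental replicate 1 was next at 0.9812, with 958 such genes. All 10 markers of urothelial epithelium reached at least 6.90 on every array. None of 7 fat cell markers, among them adiponectin (ADIPOQ, at most 4.17), passed 6.83, none of 8 endothelial markers passed 6.50, and of 8 macrophage markers CD68 alone passed 7, reaching 10.08. No label states that replicate arrays came from separate cultures, so p-values measure the spread between these arrays. In bulk RNA, fewer cells with a transcript and less transcript in each cell cannot be told apart.

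In RT112 R1 +PD cells, FABP4 gave 7.01, 6.67 and 6.93, against 14.45, 14.92 and 14.59 in R1 -PD cells and 16.97, 16.91 and 16.95 in parental cells. The 3 groups did not overlap, and the gap between the highest R1 +PD array and the lowest parental array was 9.9 log2 units. R1 +PD differed from R1 -PD by -7.78 log2 units and from parental cells by -10.07. The 8 other targets did not share this fall. ACSL5, a long-chain acyl-CoA synthetase of the mitochondrial and endoplasmic reticulum membranes, was the nearest follower, at 11.82, 13.11 and 10.25 in R1 +PD against 14.02, 14.14 and 14.30 in parental cells, a difference of -2.43. FABP5, the epidermal fatty acid carrier, was lower by less than 1 log2 unit, at 5.63, 5.64 and 5.52 in R1 +PD against 6.41, 6.51 and 6.43 in parental cells. Those were the 3 genes whose R1 +PD arrays all lay below the parental arrays, an arrangement found in 21.8% of all genes.

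Another 3 genes stood on the opposite side in the same cells. ACAA2, the thiolase of the last step of mitochondrial β-oxidation, gave 9.85, 9.65 and 11.47 in R1 +PD against 7.50, 7.57 and 7.53 in parental cells, a difference of 2.79. ACSL1, the main acyl-CoA synthetase of fat and liver, gave 11.93, 10.98 and 11.01 against 9.49, 9.61 and 9.30, a difference of 1.84. PDK4, the kinase that shuts the pyruvate dehydrogenase complex when fatty acids are burned, gave 7.04, 8.29 and 6.30 against 5.27, 5.59 and 5.61, a difference of 1.72. For each of these 3 every R1 +PD array lay above every parental array, as was the case for 18.1% of all genes. CPT1A, the gate for fatty acid entry into mitochondria, differed by -0.65 with overlapping arrays, and ANGPTL4, the secreted inhibitor of lipoprotein lipase, and PLIN2, a coat protein of lipid droplets, differed by 0.09 and 0.00 at signals near the array medians. Without R1 +PD replicate 3, the array that stood apart, the differences were -10.10 for FABP4, -1.69 for ACSL5, 2.22 for ACAA2 and 2.18 for PDK4, and that of CPT1A was -0.98 with both remaining arrays below every parental array. Against R1 -PD, the R1 +PD arrays lay wholly below for FABP4, ACSL5 and FABP5 (15.8% of all genes) and wholly above for PDK4 and ACSL1 (15.7%), while ACAA2, CPT1A, ANGPTL4 and PLIN2 overlapped.

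**Figure D1:**
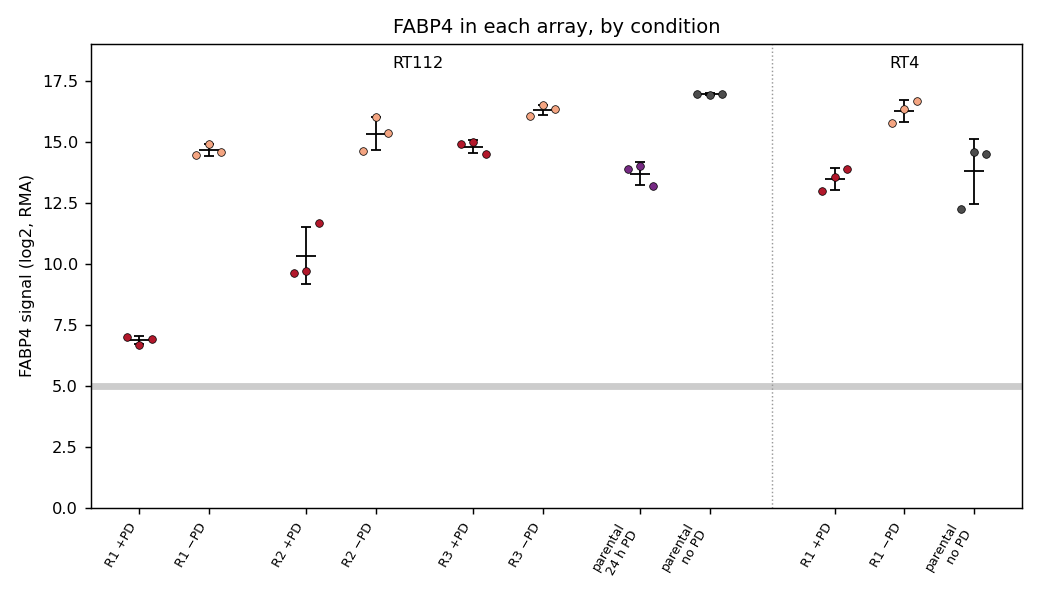
FABP4 signal (log2, y axis from 0) on every array of the 11 conditions, with the mean and SD of 3 arrays beside the points and the range of array medians as a grey band. R1 +PD arrays lie at 6.67 to 7.01 and parental RT112 arrays at 16.91 to 16.97, with R2 +PD between them.

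RT112 R2, kept in 2 µM drug, shared no array with the comparison that named the genes. FABP4 gave 9.63, 9.70 and 11.68 in R2 +PD cells, against 14.63, 16.00 and 15.37 in R2 -PD cells. All R2 +PD arrays were below all R2 -PD arrays, although R2 +PD replicate 3 stood well above the other replicates. The difference was -5.00 ± 0.61 (SE; limma, adjusted p = 0.00315). ACSL5 moved the same way, with 12.21, 12.10 and 12.35 in R2 +PD against 13.10, 13.49 and 13.55 in R2 -PD, a difference of -1.16 ± 0.14 (adjusted p = 0.00309). These 2 of 9 genes were called lower and 0 higher at an adjusted p under 0.01, where 10.2% of all genes were called, 5.85% lower and 4.36% higher. Both calls were lost when R2 +PD replicate 1 or 2, or R2 -PD replicate 2 or 3, was left out, with an adjusted p of at most 0.0192. In 1 fit over all RT112 arrays the count was 1 higher and 1 lower, as ACSL5 missed the threshold (adjusted p = 0.0426) and ACAA2 passed it as higher (1.91, adjusted p = 0.00284).

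PDK4, ACSL1 and ACAA2 were higher on average in R2 +PD than in R2 -PD, and none of the 3 passed the test. PDK4 gave 6.52, 7.07 and 6.37 in R2 +PD against 5.27, 5.92 and 5.69 in R2 -PD (difference 1.03, adjusted p = 0.0206). ACSL1 averaged 11.65 in R2 +PD and 10.72 in R2 -PD, a difference of 0.92 (adjusted p = 0.0326). ACAA2 gave 11.66, 11.75 and 11.30 in R2 +PD against 10.86, 8.90 and 9.23 in R2 -PD, a difference of 1.91 (adjusted p = 0.0315). One R2 -PD array, replicate 1, sat far nearer to the +PD arrays than its fellows did, and without it the ACAA2 difference was 2.51 (adjusted p = 0.00184). FABP5, ANGPTL4, PLIN2 and CPT1A overlapped between the R2 groups.

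In R3, the derivative with the HRAS mutation, FABP4 stayed high in drug. It gave 14.90, 15.00 and 14.48 in R3 +PD cells, against 16.07, 16.51 and 16.32 in R3 -PD cells. The arrays did not overlap, and the difference of -1.51 ± 0.17 had an adjusted p of 0.0848 (limma), in a comparison where 0% of all genes passed. Of the 9 genes 0 were called in R3, with 2 under an unadjusted p of 0.05 by limma, FABP4 and ACAA2, and 2 under it by the methods' t-test, which called 0 after Benjamini-Hochberg adjustment. The share of all genes under an unadjusted 0.05 was not counted, here or in the comparisons below, so such counts have no background beside them. ACAA2 differed by 0.58 (adjusted p = 0.328).

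Between derivatives in drug, which differ in dose (2 µM for R2, 1 µM for R3), FABP4 was lower in R2 +PD than in R3 +PD (difference -4.46, adjusted p = 0.00648). ACSL5 was lower in R2 +PD as well, at 12.21, 12.10 and 12.35 against 13.22, 13.09 and 13.56 in R3 +PD (difference -1.07, adjusted p = 0.00785). ACAA2 was higher in R2 +PD, whose arrays lay between 11.30 and 11.75, than in R3 +PD, at 8.93, 8.76 and 8.71 (difference 2.77, adjusted p = 0.000580). So 3 of 9 genes were called, 1 higher and 2 lower, against 3.15% of all genes, 2.12% higher and 1.02% lower. Leaving out R2 +PD replicate 1 or 2 or R3 +PD replicate 1 or 2 ended the FABP4 and ACSL5 calls, and leaving out R2 +PD replicate 3 ended that of ACSL5 (adjusted p of at most 0.0404 for FABP4 and 0.0438 for ACSL5). The ACAA2 call held whichever array was left out.

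Whether the change with drug itself differed between the derivatives was tested by interaction. For FABP4 the effect of drug in R2 minus that in R3 was -3.49 (adjusted p = 0.0242), and for ACSL5 -0.84 (adjusted p = 0.0612). None of the 9 genes passed this test, which called 0.677% of all genes, 0.476% higher and 0.2% lower. In it 4 of the 9 had an unadjusted p under 0.05, a level at which the share of all genes was not counted. Without R2 +PD replicate 3 the FABP4 interaction was -4.16 (adjusted p = 0.000700), and without R2 -PD replicate 1 that of ACAA2 was 1.93 (adjusted p = 0.00486).

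**Figure D2:**
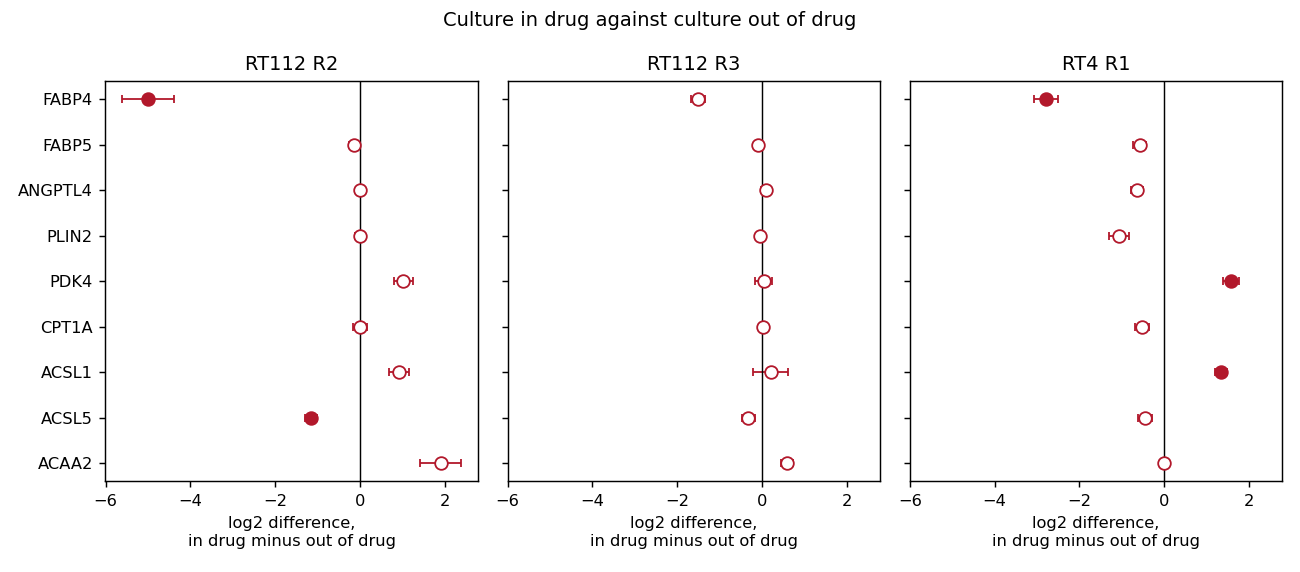
Difference in log2 signal between +PD and -PD cells of RT112 R2, RT112 R3 and RT4 R1 for each of the 9 genes. Bars are the SE, and points are filled where the adjusted p was under 0.01. RT112 R1, which was not tested, is not drawn. FABP4 is lowest in every panel. PDK4 and ACSL1 lie above 0 in each, though in R3 (0.04 and 0.21) by less than their SE.

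In parental RT112 cells FABP4 fell within 24 h of drug. Acute PD cells gave 13.89, 14.02 and 13.17, against 16.97, 16.91 and 16.95 in parental cells, whose arrays lay clear above. The difference was -3.25 ± 0.21 (limma, adjusted p = 8.68e-05). PDK4 made the largest move of the 9 genes, at 8.96, 9.09 and 10.08 in acute PD cells against 5.27, 5.59 and 5.61 in parental cells, a difference of 3.89 ± 0.29 (adjusted p = 0.000130). ACSL1 rose by 1.08 (adjusted p = 0.000448), while FABP5 fell by 0.45 (adjusted p = 0.00664), CPT1A by 0.72 (adjusted p = 0.00384) and ACSL5 by 0.50 (adjusted p = 0.00980). ACAA2 was 0.90 higher and missed the threshold (adjusted p = 0.0102). Of the 9 genes 6 were called, 2 higher and 4 lower, in a comparison that called 24.5% of all genes, 11.4% higher and 13.1% lower. The parental arrays are those of the R1 comparison, so these values, like all other comparisons with parental RT112, are not independent of it.

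The FABP4, PDK4 and ACSL1 calls in acute PD cells held whichever array was left out. The others were lost without some arrays: FABP5 without acute PD replicate 2 or 3 or any parental array, CPT1A without acute PD replicate 1 or 3 or parental replicate 1, and ACSL5 without acute PD replicate 1 or 2 or any parental array. ACAA2 passed without acute PD replicate 2 (0.69, adjusted p = 0.00905) or 3 (1.10, adjusted p = 0.00226). The highest adjusted p of the lost calls was 0.0279 for FABP5, 0.0173 for CPT1A and 0.0361 for ACSL5. In 1 fit over all RT112 arrays CPT1A (0.0104), ACSL1 (0.0143) and ACSL5 (0.387) missed the threshold.

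Long-term against acute exposure was compared directly between R2 +PD and acute PD cells, whose doses cannot be matched from the labels. FABP4 was lower still in R2 +PD than in acute PD cells (difference -3.36, adjusted p = 0.00596). PDK4 ran the other way in time: R2 +PD arrays, at 6.52, 7.07 and 6.37, lay below the acute PD arrays, at 8.96, 9.09 and 10.08 (difference -2.72, adjusted p = 0.00159). ACAA2 was 3.14 higher (adjusted p = 0.000227) and ACSL1 1.10 higher (adjusted p = 0.00154) in R2 +PD, and ACSL5 was lower (difference -1.43, adjusted p = 0.000310). These 5 of 9 genes, 2 higher and 3 lower, stood beside 11.3% of all genes called, 5.88% higher and 5.37% lower. The FABP4 call ended without R2 +PD replicate 1 or 2 or any of the acute PD arrays (adjusted p of at most 0.0295), and those of PDK4 and ACSL1 ended without R2 +PD replicate 1 (adjusted p = 0.0130 and 0.0108).

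Against the parental arrays, R2 +PD showed FABP4 at -6.61 ± 0.51 (adjusted p = 0.000204), ACSL5 at -1.93 (adjusted p = 5.79e-05) and FABP5 at -0.77 (adjusted p = 0.00226). ACAA2 was higher by 4.04 ± 0.12 (adjusted p = 7.78e-06), the largest rise of the 9 genes there, with ACSL1 higher by 2.18 (adjusted p = 7.65e-05) and PDK4 by 1.16 (adjusted p = 0.00424). CPT1A, at 8.62, 8.04 and 8.49 in R2 +PD against 9.16, 9.07 and 9.47 in parental cells, differed by -0.85 and missed the threshold narrowly (adjusted p = 0.0102). It passed as lower under 5 alternatives, with an adjusted p between 0.00341 in 1 fit over all RT112 arrays and 0.00919 after centring. In all 6 of 9 genes were called, 3 in each direction, against 18% of all genes, 9.08% higher and 8.91% lower. In R3 +PD, FABP4 (-2.15, adjusted p = 0.00256) and FABP5 (-0.82, adjusted p = 0.00497) were lower and ACAA2 (1.27, adjusted p = 0.00222) higher than in parental cells, 3 of 9 genes against 1.95% of all genes (0.899% higher and 1.05% lower). ACSL1 was 1.80 higher in R3 +PD with no overlap and did not pass (adjusted p = 0.0459), and PDK4 and CPT1A overlapped their parental arrays. In 1 fit over all RT112 arrays ACSL1 passed (adjusted p = 0.000999) and ACAA2 did not (0.0628).

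Of these 9 calls against parental arrays, those of FABP4, ACSL1, ACSL5 and ACAA2 in R2 +PD held whichever array was left out. That of FABP5 ended without parental replicate 2 or 3 (adjusted p of at most 0.0128) and that of PDK4 without R2 +PD replicate 1 or any parental array (at most 0.0175). In R3 +PD the FABP4 and ACAA2 calls ended without R3 +PD replicate 2 or any parental array (at most 0.0244 and 0.0238), and the FABP5 call without R3 +PD replicate 1 or 2 or any parental array (at most 0.0355), while ACSL5 passed there as lower without R3 +PD replicate 3 (adjusted p = 0.00619).

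**Figure D3:**
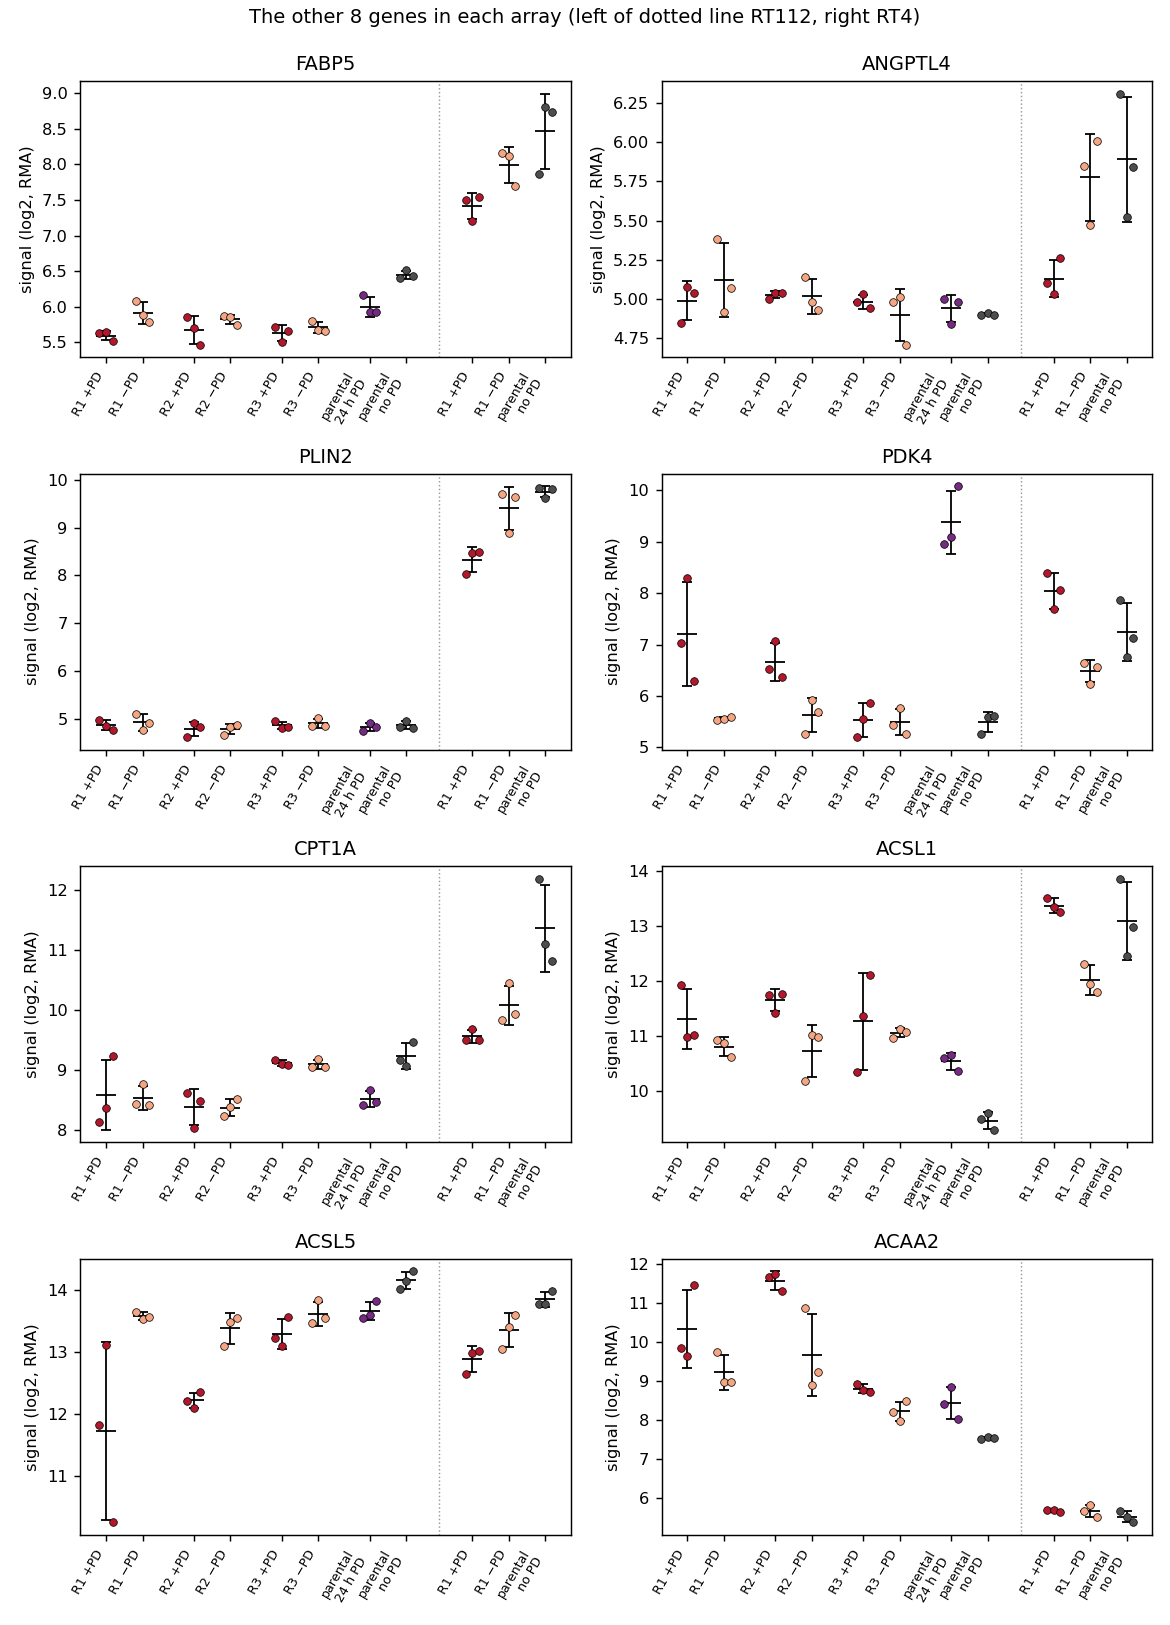
Log2 signal of the 8 other genes on every array of the 11 conditions, each in its own panel with its own y axis, with the mean and SD of 3 arrays. PDK4 peaks in acute PD cells and ACAA2 in R2 +PD cells, while ANGPTL4 and PLIN2 stay between 4.62 and 5.38 on all RT112 arrays.

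Some of the 9 genes still differed from parental cells after growth without drug. FABP4 was lower in R1 -PD than in parental cells (difference -2.29, adjusted p = 0.000639), a call that held whichever array was left out. In R2 -PD it differed by -1.61 (adjusted p = 0.0159) and in R3 -PD by -0.64 (adjusted p = 0.0153), and neither passed. ACSL1 stayed above parental cells in R1 -PD (difference 1.34, adjusted p = 0.00267) and in R3 -PD (1.59, adjusted p = 0.000889). ACAA2 was higher in R1 -PD, at 9.74, 8.96 and 8.96 against 7.50, 7.57 and 7.53 in parental cells (difference 1.69, adjusted p = 0.00631). PDK4, by contrast, lay at 5.54, 5.56 and 5.59 in R1 -PD cells, inside its parental range. FABP5 was lower than in parental cells in R2 -PD (-0.63, adjusted p = 0.00253) and R3 -PD (-0.74, adjusted p = 0.00329), as was CPT1A in R2 -PD (-0.86, adjusted p = 0.00646). In R2 -PD, ACSL1 was 1.26 higher (adjusted p = 0.0128) and ACAA2 2.13 higher (adjusted p = 0.0248) than in parental cells, and neither passed. ACSL5 differed from parental cells by -0.57 in R1 -PD, -0.77 in R2 -PD and -0.54 in R3 -PD, and none passed (adjusted p = 0.0185, 0.0121 and 0.0325).

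The 3 genes called in R1 -PD, 2 higher and 1 lower, stood against 1.45% of all genes, 0.761% higher and 0.686% lower. The 2 lower genes in R2 -PD stood against 6.87%, 4.18% higher and 2.69% lower, and the 1 higher and 1 lower gene in R3 -PD against 3.18%, 1.76% higher and 1.42% lower. In 1 fit over all RT112 arrays the R1 -PD count was 0 higher and 2 lower, FABP4 and FABP5 (-0.53, adjusted p = 0.00210), and ACSL1 (0.0136) and ACAA2 (0.0213) missed the threshold. Several of these calls rested on single arrays. ACSL1 in R1 -PD was lost without any of the parental arrays (adjusted p of at most 0.0164) and ACAA2 without those or R1 -PD replicate 2 or 3 (at most 0.0371). FABP5 was lost in R2 -PD without R2 -PD replicate 3 or parental replicate 2 or 3 (at most 0.0161) and in R3 -PD without R3 -PD replicate 1 or 3 or any parental array (at most 0.0224). CPT1A in R2 -PD was lost whichever array was left out (at most 0.0229), and ACSL1 in R3 -PD without R3 -PD replicate 3 (0.0138). FABP4 passed in R2 -PD without R2 -PD replicate 1 (-1.26, adjusted p = 0.00942) or 2 (-1.94, adjusted p = 0.00737), and without replicate 1 ACSL1 (1.53, adjusted p = 0.00176) and ACAA2 (1.53, adjusted p = 0.00199) passed as well.

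The order of FABP4 means over RT112 was R1 +PD 6.87 ± 0.18, R2 +PD 10.34 ± 1.16, acute PD 13.69 ± 0.46, R1 -PD 14.65 ± 0.24, R3 +PD 14.79 ± 0.28, R2 -PD 15.33 ± 0.69, R3 -PD 16.30 ± 0.22 and parental 16.94 ± 0.03 (SD, n = 3 each). The steps up to R1 -PD, and those from R2 -PD to R3 -PD and on to parental cells, exceeded the SD on either side. R1 -PD, R3 +PD and R2 -PD, neighbours in this order, lay within their spread.

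**Figure D4:**
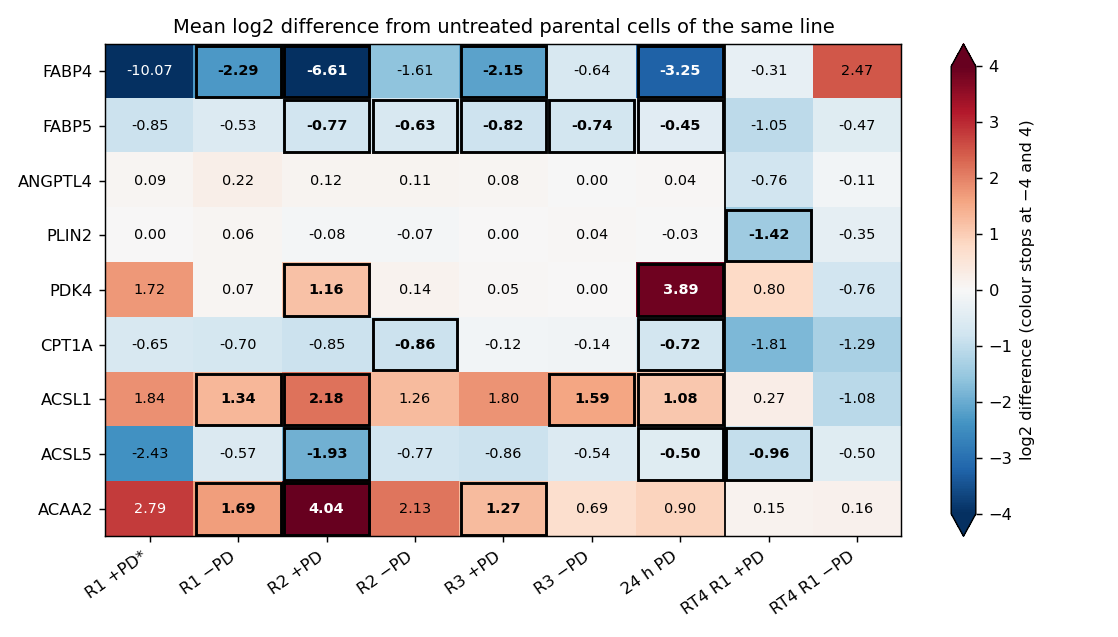
Mean difference in log2 signal from untreated parental cells of the same line for each of the 9 genes (rows) in each condition (columns), on a colour scale that stops at ±4, with framed bold cells where the adjusted p was under 0.01 and R1 +PD not tested. FABP4 is negative in every RT112 column and positive in RT4 R1 -PD.

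RT4 R1, a derivative of the other cell line, shared no array with RT112. FABP4 gave 12.97, 13.55 and 13.88 in RT4 R1 +PD cells, against 15.78, 16.32 and 16.66 in RT4 R1 -PD cells. The groups did not overlap, and the difference was -2.79 ± 0.28 (limma, adjusted p = 0.000857). PDK4 was higher, at 8.39, 7.69 and 8.07 in RT4 R1 +PD against 6.64, 6.24 and 6.57 in RT4 R1 -PD, a difference of 1.57 (adjusted p = 0.00169). ACSL1 was higher as well, at 13.51, 13.33 and 13.24 against 12.31, 11.94 and 11.79, a difference of 1.35 (adjusted p = 0.00105). Of the 9 genes 3 were called, 2 higher and 1 lower, against 10.5% of all genes, 4.79% higher and 5.74% lower. The FABP4 and ACSL1 calls held whichever array was left out, and that of PDK4 ended without RT4 R1 +PD replicate 3 (adjusted p = 0.0110). In 1 fit over all RT4 arrays FABP4 (adjusted p = 0.0128) and ACSL1 (0.0195) missed the threshold. Against parental RT4, RT4 R1 +PD overlapped for PDK4 (0.80, adjusted p = 0.144) and ACSL1 (0.27, adjusted p = 0.646). RT4 R1 -PD was lower than parental RT4 for PDK4 (-0.76, adjusted p = 0.194) and ACSL1 (-1.08, adjusted p = 0.140), and neither passed. Without parental replicate 1, the RT4 R1 +PD differences from parental RT4 were 1.115 for PDK4 (adjusted p = 0.0144) and 0.645 for ACSL1 (0.0404).

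PLIN2 and ANGPTL4 lay at 5.38 or below on every RT112 array. In RT4, PLIN2 was above this on all arrays, and ANGPTL4 on those of cells without drug. PLIN2 gave 8.03, 8.47 and 8.49 in RT4 R1 +PD cells, 9.69, 8.88 and 9.63 in RT4 R1 -PD cells, and 9.83, 9.62 and 9.80 in RT4 parental cells. The +PD arrays lay below both other groups. Against parental RT4 the difference was -1.42 (adjusted p = 0.00174), a call that held whichever array was left out, and against RT4 R1 -PD it was -1.07 (adjusted p = 0.0182). ANGPTL4 gave 5.10, 5.03 and 5.26 in RT4 R1 +PD against 5.85, 5.47 and 6.01 in RT4 R1 -PD (difference -0.65, adjusted p = 0.0197). Without RT4 R1 -PD replicate 2 these last differences were -1.33 for PLIN2 (adjusted p = 0.00373) and -0.80 for ANGPTL4 (adjusted p = 0.00562).

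Against parental RT4, 2 of 9 genes were called in RT4 R1 +PD, both lower, PLIN2 and ACSL5 (difference -0.96, adjusted p = 0.00477), where 5.86% of all genes were called, 2.53% higher and 3.33% lower. The ACSL5 call ended without any of the RT4 R1 +PD arrays or parental replicate 2 or 3 (adjusted p of at most 0.0199). FABP4 differed by -0.31 (adjusted p = 0.787), its parental arrays being 12.26, 14.58 and 14.50, with replicate 1, the RT4 array that stood apart, lowest. Without that array the FABP4 difference was -1.07 (adjusted p = 0.0260). CPT1A, at 9.50, 9.68 and 9.50 in RT4 R1 +PD against 12.19, 11.10 and 10.81 in parental RT4, differed by -1.81 (adjusted p = 0.0139), and FABP5 by -1.05 (adjusted p = 0.0387). Without the same array the CPT1A difference was -1.40 (adjusted p = 0.000795) and that of FABP5 -1.36 (adjusted p = 0.00100). In RT4 R1 -PD against parental RT4, 0 of 9 genes passed, where 0.966% of all genes were called, 0.432% higher and 0.534% lower. An unadjusted p under 0.05 was found for 5 of the 9, with the share of all genes at that level not counted. FABP4 there was 2.47 higher (adjusted p = 0.0768), which is the opposite side from the RT112 derivatives without drug. The size of this difference leans on parental replicate 1, at 12.26. The RT4 R1 -PD arrays, at 15.78 or more, also lay above the other parental arrays.

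ACAA2 lay between 5.38 and 5.83 on all 9 RT4 arrays, about or below the median gene of those arrays (5.78 to 5.87). In R2, PLIN2 averaged 4.79 with and without drug, and ANGPTL4 5.03 and 5.02, near the array medians. For these genes a differing effect of drug cannot be told from a signal too low to read in RT4 or in R2. The interaction of drug effect in R2 against RT4 R1 was 1.91 for ACAA2 (adjusted p = 0.0397), 1.06 for PLIN2 (adjusted p = 0.0304), 0.66 for ANGPTL4 (adjusted p = 0.0309) and -2.21 for FABP4 (adjusted p = 0.0770). None of the 9 genes passed this interaction, which called 5.85% of all genes (2.96% higher and 2.9% lower). Of the 9, 5 had an unadjusted p under 0.05, a level at which the share of all genes was not counted. Of these, 4 did pass without a particular array: ACAA2 without R2 -PD replicate 1 (2.51, adjusted p = 3.73e-05), FABP4 without R2 +PD replicate 3 (-2.88, adjusted p = 0.00424), and PLIN2 (1.32, adjusted p = 0.00229) and ANGPTL4 (0.81, adjusted p = 0.00373) without RT4 R1 -PD replicate 2.

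The receptors in R2 +PD differed from parental cells by less than 1 log2 unit. PPARG gave 8.69, 8.44 and 9.02 in R2 +PD cells, against 9.49, 9.64 and 9.56 in parental cells, with no overlap (difference -0.85, adjusted p = 0.00513). PPARD gave 8.58, 8.33 and 8.54 in R2 +PD against 9.08, 9.29 and 9.47 in parental cells (difference -0.80, adjusted p = 0.00309). PPARA differed by -0.01 (adjusted p = 0.950) and their partner RXRA by -0.48 (adjusted p = 0.0271). Against acute PD cells, R2 +PD had less PPARD (difference -0.67, adjusted p = 0.00878) and less RXRA (-0.71, adjusted p = 0.00803). In R1 +PD, the differences from parental cells were -0.71 for PPARG, -0.54 for PPARD and -0.28 for RXRA without overlap (21.8% of all genes lay lower in this way), and 0.08 for PPARA with overlap. Without R1 +PD replicate 3 they were -0.57 for PPARG, -0.49 for PPARD and -0.13 for RXRA. PPARG also lay below parental cells without overlap in the remaining RT112 conditions, though none of these differences passed. The share of all genes that lay lower in this way was not counted for them. They were -0.48 in R3 +PD, -0.42 in R3 -PD, -0.46 in R1 -PD, -0.45 in R2 -PD and -0.35 in acute PD cells. Between R2 +PD and R2 -PD the PPARG arrays overlapped (difference -0.40, adjusted p = 0.342). RXRA was called lower in R2 -PD than in parental cells (-0.57, adjusted p = 0.00409). In RT4 R1 +PD against RT4 R1 -PD, RXRA was 0.47 higher (adjusted p = 0.00643) and PPARG differed by -0.18 (adjusted p = 0.568).

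**Figure D5:**
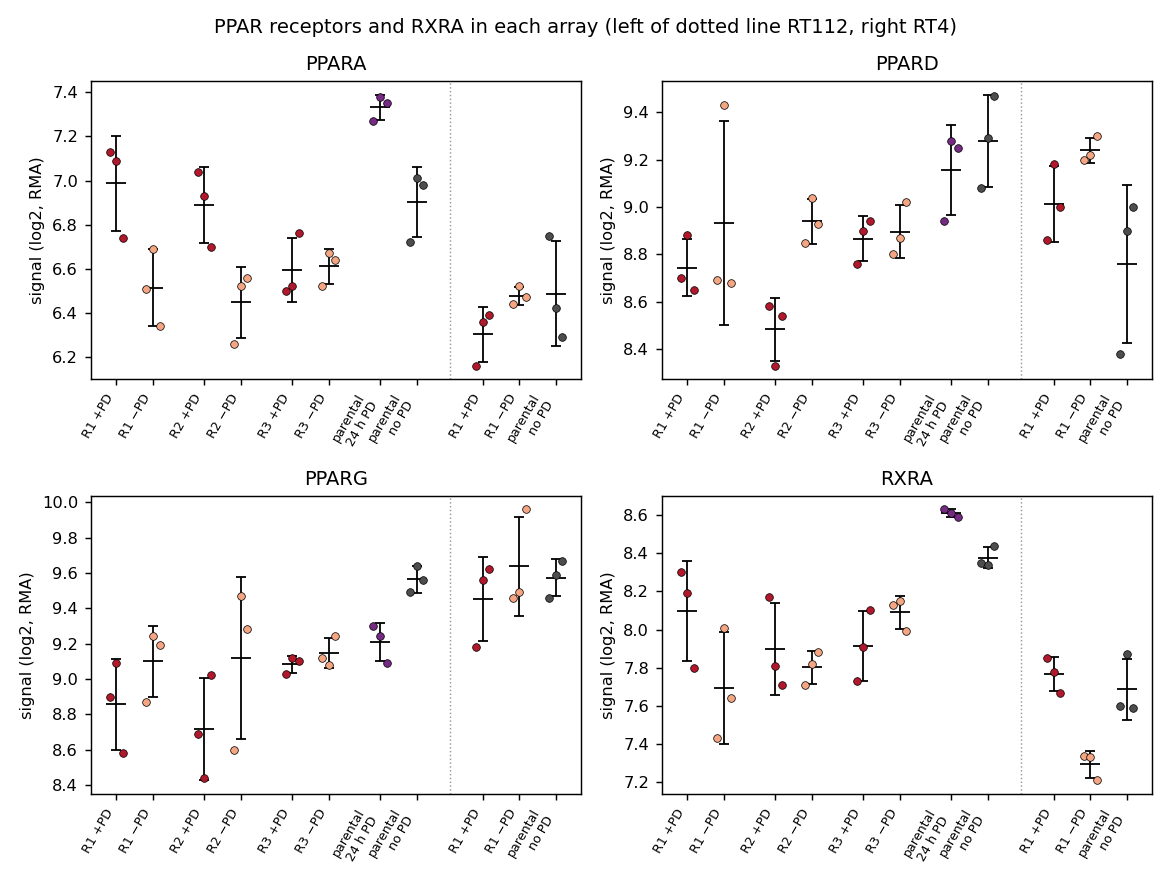
Log2 signal of PPARA, PPARD, PPARG and RXRA on every array of the 11 conditions, with the mean and SD of 3 arrays. PPARG lies between 8.44 and 9.02 in R2 +PD arrays and between 9.49 and 9.64 in parental RT112 arrays. The arrays of all other RT112 conditions also lie below the parental ones for PPARG.

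A further 6 lists of pathway genes, 118 genes of which 105 were measured, were read with the same tests. Acute PD against parental cells called 33 of them, 21 higher and 12 lower (31.4%, against 24.5% of all genes). R2 +PD against parental cells called 31, 13 higher and 18 lower (29.5%, against 18%). R2 +PD against R2 -PD called 20, 12 higher and 8 lower (19%, against 10.2%), and RT4 R1 +PD against RT4 R1 -PD called 18, 10 higher and 8 lower (17.1%, against 10.5%). In R3 +PD against R3 -PD, 0 of the 105 were called. The lists were described only, with no set test. The median difference of all genes lay between -0.04 and 0.03 in these comparisons. Leaving out 1 array moved the count between 26 and 28 in acute PD, 18 and 31 in R2 +PD against parental, 0 and 20 in R2 +PD against R2 -PD, and 8 and 14 in RT4.

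Among genes of fatty acid uptake and binding, 1 of 22 was called lower and 2 higher in R2 +PD against R2 -PD. SLC27A2, a very long-chain acyl-CoA synthetase and transporter, averaged 8.38 in R2 +PD and 11.90 in R2 -PD (difference -3.52, adjusted p = 0.00239). OLR1, a receptor for oxidised low-density lipoprotein, was higher by 2.16 (adjusted p = 0.00547). In acute PD cells OLR1 was 2.61 higher than in parental cells and SLC27A2 fell by 1.77, both called. Of 19 lipid droplet and lipolysis genes, 4 were lower and 1 higher in R2 +PD against R2 -PD. DGAT2, which makes triglyceride, averaged 6.72 in R2 +PD and 10.01 in R2 -PD (difference -3.30, adjusted p = 0.00131), and AQP3, a glycerol channel, differed by -1.60. HILPDA, an inhibitor of the lipase ATGL, differed by -1.33 there, whereas in acute PD cells it was 1.47 above parental.

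Of 25 genes of fatty acid activation and mitochondrial oxidation, 4 were higher and 2 lower in R2 +PD against R2 -PD, with SLC22A5, the carnitine transporter, at 1.23 and ETFA, an electron carrier of β-oxidation, at -0.91. The same list had 6 higher and 2 lower in acute PD against parental cells, led by UCP2, a mitochondrial carrier, at 2.05, and 5 higher and 2 lower in RT4 R1 +PD against RT4 R1 -PD, again with UCP2, at 3.00. Of 10 pyruvate dehydrogenase and glyceroneogenesis genes, 1 was higher and 1 lower in R2 +PD against R2 -PD, 2 higher and 2 lower in acute PD against parental cells, and 1 higher and 3 lower in RT4 R1 +PD against RT4 R1 -PD. PDHA1, a subunit of pyruvate dehydrogenase, was the lower gene in R2 +PD (-0.70, adjusted p = 0.00744). PDK2, a relative of PDK4, was called higher in R2 +PD against R2 -PD (0.81), in acute PD against parental (1.36) and in RT4 R1 +PD against RT4 R1 -PD (0.86). PDK1 was called lower in RT4 R1 +PD against RT4 R1 -PD (-1.46). Of 13 receptors and coregulators, 3 were higher and 0 lower in R2 +PD against R2 -PD, namely NCOA2 (1.30), PPARGC1A (1.06) and NCOA1 (0.89), all coactivators. Part of the NCOA2 and NCOA1 gap lay in R2 -PD, where both were called lower than in parental cells (-0.73 and -0.67). PPARGC1A was not called there (0.26), where it averaged 4.72, below the array medians. Of 16 peroxisomal and ketogenic genes, 1 was called in R2 +PD against R2 -PD, ACOX3, a peroxisomal acyl-CoA oxidase (1.24).

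Likeness to FABP4 was described by Pearson's r over the 24 RT112 arrays, which share 8 conditions, so that r follows the order of the condition means. The R1 +PD and untreated parental arrays, whose difference chose FABP4, are among them. The r values are therefore not independent of that choice and serve as a description only. Of the other 8 genes, ACSL5 was most like it (0.82) and ACAA2 most unlike (-0.72), with ACSL1 at -0.51, FABP5 at 0.49, CPT1A at 0.45, PDK4 at -0.44, ANGPTL4 at -0.18 and PLIN2 at 0.14. Over the 9 RT4 arrays ACSL1 (-0.98) and PDK4 (-0.89) ran opposite to FABP4. Among 660 genes with an SD of at least 1 in RT112, the 5 most like FABP4 were LRRC8B (0.9753), LPAR1 (0.9738), LAPTM5 (0.9577), TMPRSS4 (0.9554) and AKR1C2 (0.9527). LAPTM5, a lysosomal membrane protein, averaged 5.16 in R1 +PD and 14.37 in parental cells, and TMPRSS4, a membrane serine protease, 5.96 and 12.36 in the same groups.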

How the data were processed

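RNA of 33 cell line samples was hybridised to Affymetrix human transcriptome arrays, and the deposited log2 values were summarised by the authors with RMA (Affymetrix Power Tools, and Affymetrix Expression Console per the labels, versions not given in the sources used here), which corrects background, normalises quantiles across arrays and pools probes into 70523 probe sets. Of these, 23781 carried 1 gene symbol, which gave 22465 genes by the brightest probe set. Groups came from the sample labels. The 9 genes, the pathway lists and the markers were chosen with earlier results of these data known.

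From the deposited log2 values, each comparison was fitted with limma 3.58.1 in R 4.3.3 on its own 3 against 3 arrays and all 22465 genes, with Benjamini-Hochberg adjustment and a threshold of 0.01, after the study's methods. Drug effects were compared by an interaction contrast over 12 arrays. Two-sided p-values were used throughout, and the fits were tested on simulated data. The number of arrays, 3 per condition, limits the precision. No detection calls were used, and none of the 9 genes lay in the lowest 30% by mean signal. Alternatives were leaving out each array, the replicate number as a block, 1 fit over a cell line, and a trended and robust prior. Others were renewed quantile normalization, centring on the array median, every probe set of 1 symbol, and leaving out low genes. The last was the methods' t-test, here with Benjamini-Hochberg adjustment, which the study names for single genes beside ANOVA with Tukey's test. Leaving out R1 +PD replicate 3 or RT4 parental replicate 1 was chosen after seeing the data, as was reading the lists under all alternatives.

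Whether the same replicate number marks paired arrays was checked by the correlation of deviations from the group means, which ran from -0.32 to 0.38 over 13 comparisons. Every pair was over 0.1 in 1 of them, R3 -PD against parental cells, where the block changed no call on the 9 genes and, of the 105 pathway genes, called 1 higher and 0 lower, against 0 higher and 3 lower without it. Named besides the 9 genes were the PPARs and RXRA, up to 3 called genes of each list with the largest difference, and the 5 genes most like FABP4. Promoter sequences came from a RefSeq table.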

Additional observations from a re-analysis of the deposited data

Results flagged for a closer look

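The effect of drug (+PD minus -PD) was set against itself in RT112 R2 and RT4 R1 by an interaction test, and 13 of the 105 pathway genes passed it at an adjusted p under 0.01 (limma), 9 higher and 4 lower in R2, or 12.4% of the lists against 5.85% of all genes. Values are the effect in R2 minus that in RT4 R1 in log2 units. SLC27A2 stood at -3.18, with effects of -3.52 in R2 and -0.34 in RT4 R1. UCP2 stood at -2.33, with 0.66 in R2 and 3.00 in RT4 R1. SLC27A6, a fatty acid transporter, was at 1.25, LPIN1, a phosphatidate phosphatase, at 0.96 and PCK2, the mitochondrial PEP carboxykinase, at 1.02. SLC27A6 averaged 4.61 in R2 -PD, below the array medians, and 5.92 in R2 +PD. These 5 differences passed whichever of the 12 arrays was left out, with an adjusted p of at most 0.00375.

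DGAT2 stood at -2.08, VLDLR, a lipoprotein receptor, at 1.41, ACSL4, an acyl-CoA synthetase, at 1.28, MGLL, the monoglyceride lipase, at 1.25, PPARGC1A, a PPAR coactivator, at 1.01 and HADH, an enzyme of β-oxidation, at -0.98. PPARGC1A averaged 4.72 in R2 -PD, below the array medians, and 5.78 in R2 +PD. ECI2 (0.65) and DECR1 (0.66), both auxiliary enzymes of fatty acid oxidation, also passed. Each of these 8 lost its call in between 6 and 11 of the 12 fits with 1 array left out, with an adjusted p of at most 0.0253.

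Between R2 and R3, the effect of drug on SLC27A6 differed by 1.27 (adjusted p = 0.00496), with 1.31 in R2 and 0.04 in R3, and this call was lost in 9 of 12 fits with 1 array left out. In R3 +PD SLC27A6 averaged 4.65, below the array medians. R2 was kept at 2 µM, and R3 and RT4 R1 at 1 µM, so derivative and dose cannot be told apart in these differences.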

How the results depend on the processing

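Of 37 calls on the 9 genes, 0 reversed under any alternative, and 5 held under every one: FABP4 and PDK4 in acute PD against parental cells, and ACSL1, ACSL5 and ACAA2 in R2 +PD against parental cells. Only leaving out an array, renewed quantile normalization and centring changed the difference itself, so the other alternatives could not reverse a call. Each of the 9 genes had 1 probe set of its symbol alone, so reading every probe set left its values unchanged. Centring, every probe set and leaving out low genes ended 0 of the 37, a trended and robust prior 2 and renewed quantile normalization 3. For single genes the study's methods name ANOVA with Tukey's test, or Student's t-test, at a level of 0.05. Of these only the t-test was run here. At an unadjusted 0.05, between 2 (R3 +PD against R3 -PD) and 8 (R2 +PD against parental) of the 9 genes passed it in the 13 comparisons. How many of all genes passed at that level was not counted. After Benjamini-Hochberg adjustment over all genes at 0.01, this t-test, which borrows no spread from other genes, ended 32 calls: it called 2 genes in acute PD against parental (6 by limma), 3 in R2 +PD against parental (6) and 0 in R2 +PD against R2 -PD (2), acute PD (5) and R3 +PD (3), in RT4 R1 +PD against RT4 R1 -PD (3) and parental RT4 (2), in R3 +PD against parental (3), and in R1 -PD (3), R2 -PD (2) and R3 -PD (2) against parental. One fit over the cell line ended 13 and left 3 in R2 +PD against acute PD, 1 in RT4 R1 +PD against RT4 R1 -PD, 3 in acute PD against parental and 4 in R2 -PD against parental. Leaving out low genes also gave 4 in R2 -PD against parental, and renewed quantile normalization gave 1 in RT4 R1 +PD against parental RT4. Calls were also gained: in 1 fit, besides those given above, CPT1A in RT4 R1 +PD against parental RT4 (adjusted p = 0.00448) and FABP4 (just under 0.01) and ACAA2 (0.00225) in R2 -PD against parental, ACAA2 in acute PD without low genes (0.00640) and after renewed quantile normalization (0.00683), and ACSL1 (0.00901) and ACSL5 (0.00883) in R2 -PD without low genes.

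The replicate number as a block ended 12 calls, leaving 3 genes in R2 +PD against acute PD and 0 in R2 +PD against R3 +PD, R3 +PD against parental and RT4 R1 +PD against parental RT4. Outside R3 -PD against parental cells these numbers were not shown to pair the arrays. The block also gained 3 calls: CPT1A in R2 +PD (adjusted p = 0.00788) and ACSL5 in R2 -PD (0.00760) against parental, and ANGPTL4 in RT4 R1 +PD against RT4 R1 -PD (-0.65, adjusted p = 0.00900), where each array correlated best with its own number, a hint from the data and not the design.

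With 1 array left out, the number of genes called ranged from 0 to 3 in R2 +PD against R2 -PD, 2 to 5 against acute PD, 1 to 3 against R3 +PD and 4 to 6 against parental, from 3 to 5 in acute PD against parental, from 2 to 5 in RT4 R1 +PD against RT4 R1 -PD and 1 to 4 against parental RT4, from 0 to 4 in R3 +PD against parental, from 1 to 3 in R1 -PD, 0 to 4 in R2 -PD and 0 to 2 in R3 -PD against parental, and from 0 to 2 and 0 to 1 in the interactions of R2 with RT4 R1 and with R3. It was 0 throughout in R3 +PD against R3 -PD and in RT4 R1 -PD against parental RT4.

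Among the 105 pathway genes, centring turned the split in RT4 R1 +PD against RT4 R1 -PD to 7 higher and 9 lower, beside 10 and 8, and renewed quantile normalization gave 3 and 6 in RT4 R1 +PD against parental RT4, beside 2 and 10. Centring gave 5 and 5 in the interaction of R2 with RT4 R1, beside 9 and 4. For the 9 genes in R2 +PD against R3 +PD, renewed quantile normalization gave 1 higher and 1 lower, beside 1 and 2. Without RT4 parental replicate 1 the RT4 R1 +PD split against parental was 4 and 17. Causes of these shifts were not tested.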

Other observations

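In RT4, the pathway genes called between R1 and parental cells were led by OLR1, the receptor for oxidised low-density lipoprotein. It was 6.86 log2 units higher in RT4 R1 +PD than in parental RT4 (adjusted p = 0.000652) and 6.06 higher in RT4 R1 -PD, so that most of that difference was present without drug. AQP3, the glycerol channel, differed from parental RT4 by -3.20 in RT4 R1 +PD and by -2.53 in RT4 R1 -PD (adjusted p = 0.000977 and 0.00766). UCP2 differed by -2.68 in RT4 R1 -PD against parental RT4, whereas in RT4 R1 +PD against RT4 R1 -PD it was 3.00 higher. In RT4 R1 -PD against parental RT4, 5 of the 105 pathway genes were called, 2 higher and 3 lower, against 0.966% of all genes. Leaving out 1 array moved this count between 0 and 8. It was 0 without RT4 R1 -PD replicate 2 or 3, without parental replicate 2 or 3 and with the replicate number as a block, and 8 without parental replicate 1, the array that stood apart. There the OLR1 and AQP3 calls were lost in 5 of 6 fits with 1 array left out (adjusted p of at most 0.0286 and 0.0415) and that of UCP2 in 4 (at most 0.0238). In RT4 R1 +PD against parental RT4, OLR1 and AQP3 passed in all 6 such fits.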
